A study of Arabidopsis thaliana with 3 samples.

Results

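The genes described here are those of cytokinin metabolism and response in Arabidopsis thaliana, examined for DNA sites retained by SPL10. A gene was a member when its symbol or a synonym was ARR, AHP, AHK, IPT, CKX or LOG followed by a number. This rule found 62 of 37899 nuclear genes, all 62 of them protein-coding, with 39 named by their symbol and 23 by a synonym. The families held 24 ARR, 7 AHP, 5 AHK, 9 IPT, 7 CKX and 10 LOG genes. A symbol can belong to unrelated genes, and 2 members carried such a name. AT1G13330, listed as AHP2, is HOP2, a protein of meiotic chromosome pairing, and AT3G09770, listed as LOG2, is the ubiquitin ligase LOSS OF GDU 2. Both were kept because the rule finds them. Counts include them unless stated otherwise.

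Cytokinins are adenine-derived hormones that promote cell division, shoot meristem activity and leaf greening, and that delay leaf ageing. Isopentenyltransferases (IPT) make the first cytokinin nucleotides, LONELY GUY enzymes (LOG) release the active bases, and cytokinin oxidases (CKX) degrade them. Receptor kinases (AHK) pass a phosphate through AHP proteins to the type-B ARR transcription factors, which switch on target genes. Among those targets are the type-A ARR genes, whose products dampen the same signal.

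The series mapped SPL10 binding by DAP-seq, in which genomic DNA retained by a transcription factor is sequenced and compared with an input. SPL10 is an SBP-domain transcription factor and a target of the microRNA miR156. All 3 samples came from leaf material of the Col-0 ecotype, fixed with 1% formaldehyde for 10 minutes before the DNA was sheared. They were 2 SPL10 precipitations, labelled IP1 and IP2, and 1 input, labelled InPut. No second genotype or treatment was included, so binding was not compared between conditions. Whether SPL10 held its sites in naked DNA or in fixed leaf chromatin was not told apart here. The tissue label could not be set against marker genes, because DNA binding gives no expression levels.

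The peak lists held 21574 peaks in replicate 1 and 21439 in replicate 2, with a median of 47 and 45 tags at the summit, and 16697 nuclear peaks were shared by a reciprocal overlap of at least 50%. At shared peaks the variance of the tag split between the replicates was 0.649 times the binomial value. These peaks were kept because both replicates called them, and the binomial model does not describe their tag split. The ratio is therefore no measure of how well the replicates agree. Shared peaks made up 77.7% of the nuclear peaks of replicate 1 and 78.2% of those of replicate 2. Peaks called in only 1 replicate do not enter this variance, so it does not describe the replicates as a whole. The replicates were counted as 1 sample, with both values printed and no standard deviation. The labels do not say whether separate plants were used. Fold enrichment is the authors' own value at the summit of a peak, relative to the background of their peak caller. Bracketed ranges after a fold are 95% exact Poisson counting intervals, which cover counting error only, and they are left out where a summit held over 198 tags in either replicate, 0.5 times the ceiling of 396 tags seen in both lists. A gene is called bound when the mean of both replicates' summits of a shared peak lay in the gene or within 2000 bp of either annotated end. The gene table holds no strand, so the flanks are named by coordinate, and which flank holds the promoter was not used here.

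Most of the cytokinin genes had an SPL10 peak, and the peaks ranged from among the weakest to among the strongest of the genome. Of the 62 genes, 48 were bound, a share of 77.4% (exact binomial interval 65.0% to 87.1%), and 14 were not. By the same rule 59.9% of the 27444 protein-coding nuclear genes and 57.4% of all nuclear genes were bound. The bound members had 74 shared peaks, none of them assigned to a pair of members. Their strongest peaks had a median of 4.51-fold, beside 4.41-fold over all bound protein-coding genes, and lay above that level in 24 members and below it in 24. Without HOP2 and LOSS OF GDU 2, 46 of 60 genes were bound (76.7%), with a median of 4.20-fold. The share of genes bound was thus above the background, while the strength of the peaks was close to it. No test of the set was made, since its members were chosen with earlier results of these data known.

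Gene length moved with the share bound. Members had a median length of 2520 bp, against 2078 bp over protein-coding genes, and bound members were longer (2654 bp) than unbound ones (1844 bp). Among members under 1500 bp, 6 of 11 were bound, a share of 54.5%, beside 51.6% of protein-coding genes of that length. From 1500 bp up to 3000 bp the share was 23 of 31 members (74.2%), beside 59.6%. At 3000 bp or longer it was 19 of 20 members (95%), beside 70.2%. Given the share of protein-coding genes in each length class, 38.2 members, or 61.6%, would be bound. The part of length in the remaining difference was not tested further.

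**Figure D1:**
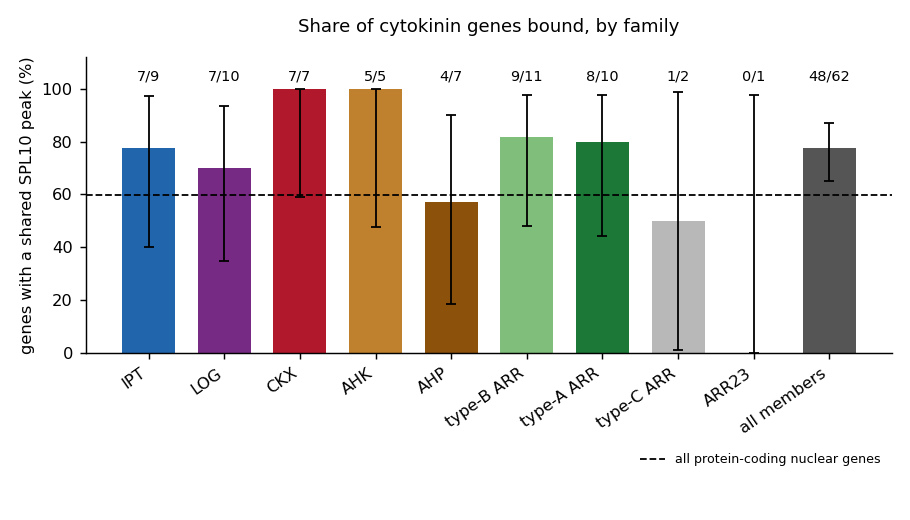
Share of genes with a shared SPL10 peak in the gene or within 2000 bp of it (vertical axis, percent), by family. Bars give the share, error bars the 95% exact binomial interval, the labels bound over all genes, and the dashed line the 59.9% of protein-coding nuclear genes. All 7 CKX and all 5 AHK genes were bound, against 4 of 7 AHP genes, and the intervals of the families are wide.

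Among the IPT genes, which start cytokinin synthesis, 7 of 9 were bound (77.8%, interval 40.0% to 97.2%), beside 59.9% of protein-coding genes. Their strongest peaks had a median of 9.65-fold, from 2.71-fold to 20.5-fold. With the main overlap and window, IPT7 had the highest fold of any member, 20.3-fold in replicate 1 and 20.6-fold in replicate 2. This peak lay on chromosome 3 at 8490784 to 8491287 (TAIR10, replicate 1) and ranked at percentile 99.4 of all shared peaks. Intervals are left out here and at ARR21 (17.4-fold and 17.6-fold), so IPT7 and ARR21 are not ordered by strength. The summit stood 792 bp beyond IPT7 on the higher-coordinate side, inside a pair of overlapping long noncoding RNA genes. A second IPT7 peak stood in the opposite flank, 722.5 bp from the gene, at 12.3-fold (10.6 to 14.3) and 12.7-fold (10.8 to 14.7). IPT7 was thus flanked by strong peaks on either side, and both replicates gave nearly equal values for each. With a reciprocal overlap of 75%, or with each peak given to its nearest gene only, IPT7 kept the second peak alone (mean 12.5-fold). ARR21 then had the highest mean fold of the members (17.5-fold). Within 500 bp IPT7 had none.

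IPT5 had a peak inside the gene, 295.5 bp from an annotated end, on chromosome 5 at 6361869 to 6362253, with 10.7-fold (9.22 to 12.4) and 10.7-fold (9.10 to 12.4). For IPT8, also known as PGA22, the values were 10.3-fold (8.68 to 12.1) and 9.97-fold (8.35 to 11.8), 301 bp past the higher-coordinate end. IPT3, whose expression is known to respond to nitrate, had 9.71-fold (8.16 to 11.5) and 9.59-fold (8.01 to 11.4) at 584 bp off its lower-coordinate end. The counting intervals of IPT5, IPT8 and IPT3 overlap, so these genes are not ordered by strength. IPT3 had 3 shared peaks in all, the others at 4.97-fold and 3.71-fold and at 2.21-fold and 2.19-fold.

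The remaining bound IPT genes had weaker peaks. IPT6 had 3.66-fold in replicate 1 and 3.78-fold in replicate 2, with a summit inside a neighbouring coding gene. A further peak inside IPT6 had 2.16-fold and 2.83-fold. IPT1 had 3.18-fold and 3.25-fold, and a further peak of 3.56-fold and 2.88-fold nearer to the gene. IPT9, which like IPT2 modifies transfer RNA, had 2.88-fold and 2.55-fold at 1872 bp. IPT2 and IPT4 had no shared peak in their windows, and the nearest lay 6131 bp and 3894.5 bp away.

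Of the LOG genes, whose products turn cytokinin nucleotides into active bases, 7 of 10 were bound (70.0%, interval 34.8% to 93.3%). Over protein-coding genes the share was 59.9%. The bound LOG genes had a median of 6.31-fold. Without LOSS OF GDU 2 the count was 6 of 9 (66.7%), with a median of 4.58-fold. LOG2 (AT2G35990) had the highest fold of the family, at a peak inside the gene and 2150.5 bp from its nearer end, on chromosome 2 at 15114436 to 15114862. Its fold was 13.6 in replicate 1 and 15.3 in replicate 2, at percentile 96.7 of all shared peaks. As its interval is left out, LOG2 is not ordered against LOG1. LOG1 had 10.3-fold (8.68 to 12.1) and 11.03-fold (9.32 to 13.0), 1594.5 bp off its lower-coordinate end on chromosome 2 at 12079255 to 12080070. A second LOG1 peak lay inside the gene at 4.40-fold and 3.58-fold, the one left within 1000 bp. LOG6 had 6.95-fold (5.65 to 8.46) and 5.67-fold (4.47 to 7.10) at 998 bp past the gene. The unrelated LOSS OF GDU 2 had 9.07-fold (7.58 to 10.8) and 8.61-fold (7.11 to 10.3), with a summit 1955.5 bp off and nearer to another gene.

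The other bound LOG genes were at the weak end. LOG7, which acts in the shoot meristem, had 3.06-fold and 2.65-fold, with a summit inside another coding gene. LOG9 had 2.99-fold and 2.13-fold, and LOG4, also active in the meristem, had 2.71-fold and 2.58-fold, inside the gene at 86 bp from its end. LOG3, LOG5 and LOG8 had no shared peak within 2000 bp. Each of these 3 had a peak that was not shared in its window, the strongest at LOG8 with 3.24-fold in replicate 1.

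All 7 CKX genes, which encode the enzymes that break cytokinins down, were bound (100%, interval 59.0% to 100%), beside 59.9% of protein-coding genes. Among protein-coding genes of 3000 bp or longer the share was 70.2%. Their strongest peaks ran from 2.54-fold to 8.91-fold around a median of 7.06-fold, and none reached 10-fold. They had 16 peaks for 7 genes, and 5 of the 7 had more than 1, against 37.2% of bound protein-coding genes. The number of peaks per gene was not set against genes of like length, so it is not shown to be a trait of CKX genes. CKX3, which limits the size of the inflorescence meristem together with CKX5, had 4 shared peaks, the highest number of any member. The strongest lay inside CKX3 on chromosome 5 at 23047383 to 23047804, with 8.23-fold (6.81 to 9.86) and 9.59-fold (8.01 to 11.4). The next stood 50 bp past the higher-coordinate end at 5.96-fold and 6.27-fold, another inside the gene at 4.76-fold and 4.84-fold, and the weakest 1931.5 bp off at 3.34-fold and 2.80-fold. CKX3 therefore had 3 peaks within the gene or at its end that were each above the median of all shared peaks (3.77-fold).

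CKX7, the cytosolic member of the family, had 7.31-fold (5.97 to 8.85) and 8.99-fold (7.46 to 10.7) at 1383.5 bp off the lower-coordinate end, and a second peak inside the gene at 5.82-fold and 6.27-fold. CKX5 had 7.02-fold (5.72 to 8.54) and 7.33-fold (5.95 to 8.93), 20 bp past its higher-coordinate end on chromosome 1 at 28318227 to 28318535. For CKX4 the values were 7.23-fold (5.91 to 8.77) and 6.88-fold (5.55 to 8.43), with the summit 321.5 bp past the gene and inside a neighbouring coding gene. By nearest gene only, CKX4 kept a peak inside the gene at 4.65-fold and 4.17-fold. CKX3, CKX7, CKX5 and CKX4 overlap in their counting intervals. CKX6 had 3.47-fold and 4.70-fold and CKX1 had 3.18-fold and 2.67-fold, both with summits over 1000 bp away and inside other coding genes. CKX2 had 2.40-fold and 2.67-fold, inside the gene.

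**Figure D2:**
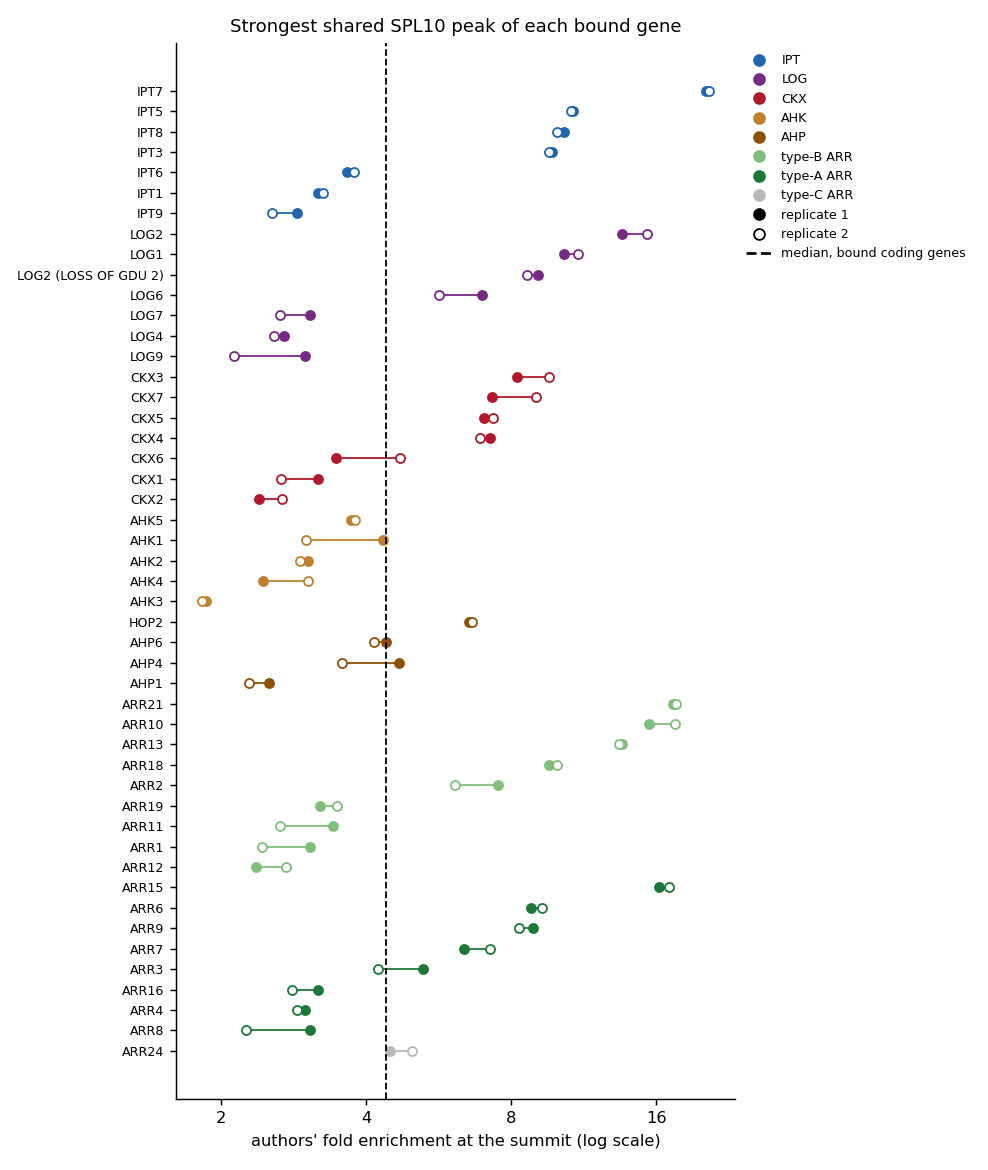
The authors' fold enrichment at the strongest shared peak of each of the 48 bound genes (horizontal axis, log scale), with replicate 1 filled and replicate 2 open, coloured by family. The dashed line marks the median of bound protein-coding genes, 4.41-fold. IPT7 stands highest at 20.3-fold and 20.6-fold, and all 5 AHK genes lie below the line by the mean of both replicates.

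Every AHK gene was bound, but only weakly. The share of the 5 histidine kinase genes (100%, interval 47.8% to 100%) stands beside 59.9% of all protein-coding genes. Among protein-coding genes of 3000 bp or longer it was 70.2%. The AHK genes had a median of 2.98-fold, and none exceeded the 4.41-fold median of bound protein-coding genes by its mean. AHK2, AHK3 and AHK4 encode the cytokinin receptors. AHK4, also named CRE1 or WOL, had 2 peaks inside the gene, at 2.45-fold (1.78 to 3.28) and 3.03-fold (2.18 to 4.11), and at 2.85-fold (2.05 to 3.86) and 2.58-fold (1.80 to 3.58). AHK2 had 3.03-fold and 2.92-fold at 926.5 bp from the gene, inside a neighbouring coding gene. AHK3 had 1.87-fold (1.26 to 2.68) and 1.82-fold (1.19 to 2.69), the weakest strongest peak of any bound member, at percentile 2.0 of all shared peaks. Its −log10 q was 1.26 in replicate 1 and 1.01 in replicate 2, a q above 0.05 in both. AHK3 is counted as bound through this peak alone.

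The other histidine kinases are not known as cytokinin receptors. AHK5 had 3.71-fold (2.82 to 4.81) and 3.79-fold (2.82 to 4.98) at 826.5 bp off its lower-coordinate end, and AHK1, an osmosensor, had 4.34-fold (3.37 to 5.49) and 2.999-fold (2.21 to 3.99) inside the gene. Of the 7 AHK peaks, 4 lay inside the gene, and 2 AHK genes were bound with flanks alone and 3 within 500 bp or by nearest gene only. Of the 5 genes, AHK5 alone was bound when both replicates had to reach a −log10 q of 10, and none was bound by the 5000 peaks of highest fold.

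The AHP genes, whose products carry the phosphate from receptors to ARR proteins, were bound in 4 of 7 cases (57.1%, interval 18.4% to 90.1%), beside 59.9% of protein-coding genes, and in 3 of 6 without HOP2. HOP2 itself had the highest fold of the group, at 6.55-fold (5.36 to 7.93) and 6.64-fold (5.40 to 8.08), with a summit that also lay inside an overlapping coding gene. In replicate 1 its counting interval overlaps those of AHP4 and AHP6, so these genes are not ordered by strength. AHP6, a pseudo-phosphotransfer protein that inhibits cytokinin signalling, had 4.41-fold (3.39 to 5.63) and 4.16-fold (3.15 to 5.40), 293.5 bp off its lower-coordinate end on chromosome 1 at 30133262 to 30133718. AHP4 had 4.69-fold (3.64 to 5.95) and 3.56-fold (2.63 to 4.72) outside the gene and 2.92-fold and 4.01-fold inside it. For AHP1 the values were 2.51-fold and 2.29-fold. AHP2 (AT3G29350), AHP3 and AHP5 had no shared peak in their windows. AHP5 missed the limit narrowly: a peak of 11.3-fold and 9.88-fold stood 2028.5 bp away, stronger than any peak assigned to the family.

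Type-B ARR genes encode the transcription factors at the end of the pathway, and 9 of 11 were bound (81.8%, interval 48.2% to 97.7%). The share over protein-coding genes was 59.9%. The bound type-B genes had a median of 6.82-fold. ARR21 had 17.4-fold and 17.6-fold, inside the gene on chromosome 5 at 2253543 to 2254007, at percentile 98.4 of all shared peaks. ARR10, a main mediator of cytokinin responses with ARR1 and ARR12, had 15.5-fold and 17.5-fold at 17.5 bp from its lower-coordinate end, on chromosome 4 at 15443826 to 15444238. ARR13 had 13.6-fold (11.8 to 15.7) and 13.4-fold (11.5 to 15.5), inside the gene on chromosome 2 at 11558513 to 11558874. ARR18 had a pair of strong peaks, at 9.57-fold and 9.94-fold in its flank and inside another coding gene, and at 9.32-fold (7.92 to 10.9) and 7.91-fold (6.59 to 9.41) inside ARR18.

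The 3 main mediators did not have like values. ARR10 stood at percentile 97.9 of all shared peaks, while ARR1 had 3.06-fold (2.23 to 4.11) and 2.43-fold (1.68 to 3.41) at percentile 25.8, and ARR12 had 2.37-fold (1.70 to 3.21) and 2.73-fold (1.99 to 3.65) at percentile 20.1. The summits of these ARR1 and ARR12 peaks both lay inside a neighbouring coding gene. ARR1 also had a peak of 2.39-fold and 1.94-fold at 151.5 bp off the gene. ARR2, a close relative of ARR1, had 7.52-fold and 6.12-fold at 120 bp off the gene. ARR11, at 3.41-fold and 2.65-fold, and ARR19, at 3.20-fold and 3.48-fold, were weak. ARR14 and ARR20 had no shared peak in their windows, and the nearest lay 2652 bp and 2691.5 bp away, the latter at 8.40-fold and 9.30-fold.

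Of the type-A ARR genes, which cytokinin induces and whose products restrain the response, 8 of 10 were bound (80%, interval 44.4% to 97.5%). The share over protein-coding genes was 59.9%. The bound type-A genes had a median of 5.78-fold. ARR15 had the strongest peak, 16.2-fold and 17.0-fold, 236 bp past its higher-coordinate end on chromosome 1 at 28132864 to 28133461, at percentile 98.0 of all shared peaks. With a reciprocal overlap of 75% this peak was not shared and ARR15 was unbound. ARR7, the partner of ARR15 in restraining the shoot meristem, had 6.39-fold (5.44 to 7.45) and 7.23-fold (6.19 to 8.39) at 438 bp off its lower-coordinate end, inside a neighbouring coding gene. ARR6 had 8.79-fold (7.32 to 10.5) and 9.29-fold (7.73 to 11.1), with the summit 1970.5 bp away and nearer to another gene. ARR9 had 8.86-fold (7.53 to 10.4) and 8.29-fold (6.95 to 9.81), 916 bp off and inside another coding gene.

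ARR3 had 5.25-fold and 4.24-fold inside the gene, 12.5 bp from its end. ARR16 had 3.18-fold and 2.80-fold, ARR8 had 3.06-fold and 2.25-fold, and ARR4 had 2.99-fold and 2.88-fold. ARR5 and ARR17 were not bound, with the nearest shared summits 4925.5 bp and 2053.5 bp away. The type-A genes form 5 pairs of close relatives. Both genes were bound in 3 pairs (ARR3 and ARR4, ARR7 and ARR15, ARR8 and ARR9). Only the first was bound in ARR16 and ARR17, and only the second in ARR5 and ARR6. As 8 of the 10 type-A genes were bound, these pair counts do not show that relatives were bound together. ARR15 had the stronger peak beside ARR7, at 16.2-fold and 17.0-fold against 6.39-fold and 7.23-fold. The strongest peaks of ARR9 and ARR8 had counting intervals that did not overlap in either replicate, with 8.29-fold (6.95 to 9.81) against 2.25-fold (1.55 to 3.16) in replicate 2. That ARR9 peak lay inside another gene. The peak inside ARR9, which is the one kept within 500 bp or by nearest gene only, had 2.92-fold (2.11 to 3.94) and 2.96-fold (2.12 to 4.02), overlapping the intervals of ARR8. For ARR3 and ARR4 the intervals overlapped in replicate 2, at 3.21 to 5.49 and 2.05 to 3.94, but not in replicate 1.

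The type-C gene ARR24 had 4.48-fold (3.45 to 5.71) and 4.99-fold (3.87 to 6.34) at 1641.5 bp, while ARR22, of the same type, had no shared peak within 2000 bp. ARR23, which was not assigned to a type here, had none either, and its nearest shared summit lay 6408 bp away.

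**Figure D3:**
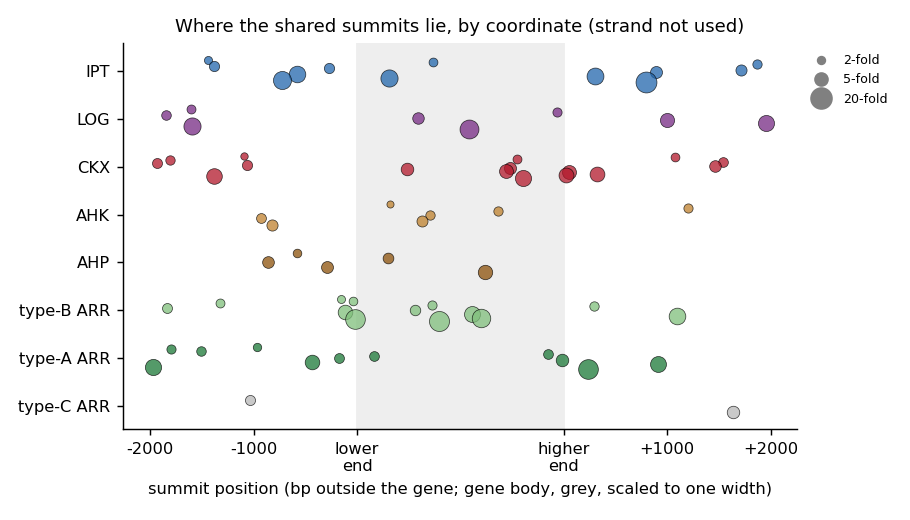
Position of the 74 shared summits relative to their gene, by family. The horizontal axis gives bp outside the lower-coordinate and higher-coordinate ends, with each gene body scaled to the grey band, and point size rises with the log2 of the mean fold. Summits lay inside the gene in 24 cases, in the lower-coordinate flank in 31 and in the higher-coordinate flank in 19.

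Member peaks were split between gene and flanks much as over protein-coding genes in general, but less evenly between the flanks. Of the 74 peaks, 67.6% lay in the flanks and 32.4% inside the gene, beside 64.8% and 35.2% over the 24449 pairs of a peak and a protein-coding gene. The lower-coordinate flank held 41.9% and the higher-coordinate flank 25.7%, beside 32.6% and 32.2%. Because strand was not used, this split by coordinate does not separate promoters from the far ends of genes. It rests on 31 and 19 summits and was not tested. In 45 of 74 cases the member was the nearest gene to the summit, and 18 of the 50 flank summits lay inside another gene. Of the 48 strongest peaks, 21 lay nearer to another gene. Which of the genes around such a peak SPL10 acts on was not tested. These counts of summits by nearest gene or inside another gene were not set against protein-coding genes. They therefore do not tell members from other genes.

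**Figure D4:**
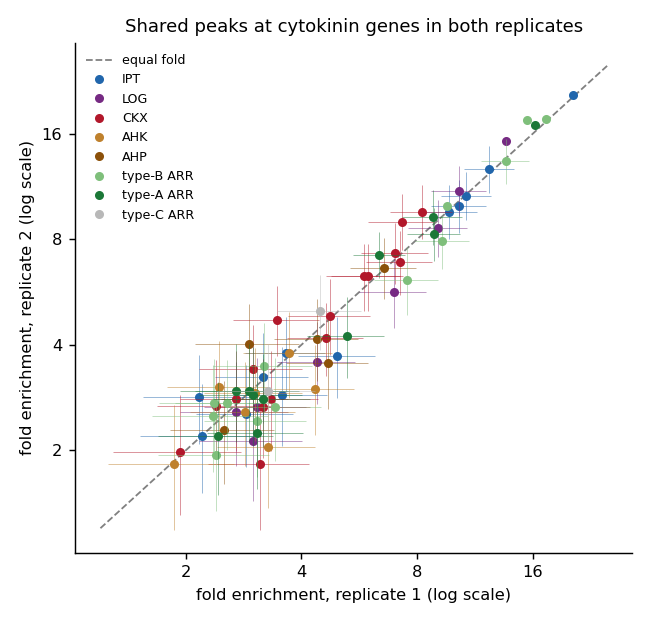
Fold enrichment of the 74 shared peaks at cytokinin genes in replicate 1 (horizontal, log scale) and replicate 2 (vertical, log scale), coloured by family. Thin bars are 95% counting intervals, left out for 6 peaks over 198 tags, and the dashed line marks equal fold. The intervals of the replicates overlap at all 74 peaks.

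Both replicates gave much the same values at these peaks. The ratio of replicate 2 to replicate 1 had a median of 0.990 and ran from 0.583 to 1.37, and replicate 2 was higher at 35 of 74 peaks. Summits lay a median of 12 bp apart, and at most 353 bp, at the weakest IPT3 peak. By an exact binomial test of the tag numbers with Benjamini-Hochberg adjustment over all shared peaks, none of the 74 differed between replicates, beside 0.00599% of all shared peaks. At an unadjusted p under 0.05 there was 1, a side peak of CKX5 with 43 and 23 tags (exact binomial p = 0.0268, adjusted p = 1), beside 1.29% of all shared peaks. Tags were taken at each replicate's own summit, and peaks called in only 1 replicate were not part of the comparison. The share of 1.29% is well below the threshold of 0.05, so at peaks called in both replicates this test seldom finds a difference. Its result is therefore no measure of agreement between the replicates.

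Stricter criteria on the peaks kept fewer members. With a −log10 q of at least 10 in both replicates, 28 of 62 members were bound (45.2%), beside 36.0% of protein-coding genes. With the 5000 shared peaks of highest fold, 22 members were bound (35.5%), beside 22.6%. These 22 comprised 9 ARR, 4 IPT, 4 CKX, 4 LOG and 1 AHP gene, the last of them HOP2, and 1 of the LOG genes was LOSS OF GDU 2. Without these 2 genes 26 of 60 members were bound by the −log10 q and 20 of 60 by the 5000 peaks. At least 10-fold was reached by 10 of the 74 member peaks (13.5%), beside 9.74% of all shared peaks. They belonged to IPT7, with 2 such peaks, and to ARR21, ARR10, ARR15, LOG2, ARR13, IPT5, LOG1 and IPT8.

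The count also moved with the window. Within 1000 bp 37 members were bound (59.7%), beside 45.9% of protein-coding genes, and within 500 bp 31 were bound (50%), beside 37.2%. With flanks alone and gene bodies left out there were 37 (59.7%), beside 45.3%, and with each peak given to its nearest gene only there were 34 (54.8%), beside 37.0%. Requiring the own summits of both replicates in the window left 48 (77.4%), beside 59.7%. A reciprocal overlap of 75% gave 45 (72.6%), beside 53.3%, and any overlap gave 50 (80.6%), beside 61.7%. The peaks of replicate 2 alone and those of replicate 1 alone gave 52 members each (83.9%), beside 69.4% and 69.8%. The share of members was above that of protein-coding genes in 12 of 12 settings, which rest on the same peaks and are not independent.

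**Figure D5:**
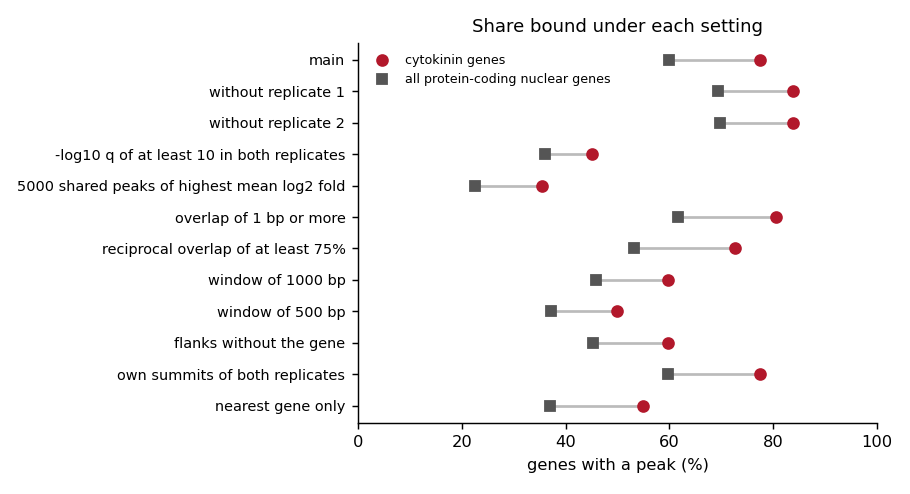
Share of genes with a peak (horizontal axis, percent) for the 62 cytokinin genes (circles) and all protein-coding nuclear genes (squares), under the main setting in the top line and 11 others. The circle lies to the right of the square in every line, at 77.4% against 59.9% in the main setting.

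Several members had summits near the 2000 bp limit. Just inside it, between 1500 and 2000 bp, lay the strongest peaks of ARR6, LOSS OF GDU 2, IPT9, LOG7, ARR11, ARR8, IPT6, ARR24, LOG9, LOG1 and CKX1. The strongest of these were LOG1 at 10.3-fold and 11.03-fold, ARR6 at 8.79-fold and 9.29-fold and LOSS OF GDU 2 at 9.07-fold and 8.61-fold. Just outside, within a further 500 bp, stood the peaks of AHP5, with 11.3-fold and 9.88-fold, and ARR17, with 2.60-fold and 2.67-fold, which were therefore counted as unbound. IPT1 and ARR21, bound through other peaks, also had summits there, at 3.98-fold and 4.61-fold and at 4.19-fold and 3.71-fold. Of the 14 unbound members, 8 had no peak of either replicate in the window and 6 had peaks that were not shared, from 1.77-fold to 3.24-fold.

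Other genes of the pathway, in a list of 31 names of which 30 matched the table, were bound in 19 of 30 cases (63.3%, interval 43.9% to 80.1%), beside 59.9% of protein-coding genes. Their strongest peaks had a median of 5.12-fold. The cytokinin response factors (CRF), transcription factors of the ERF class, made up 8 of these 19, from 12 genes. CRF12 had the highest fold of these, 13.1-fold and 13.9-fold, at 174.5 bp off its lower-coordinate end and inside a neighbouring coding gene. As its interval is left out, CRF12 is not ordered against CRF5. CRF5 had 11.8-fold (10.1 to 13.8) and 13.2-fold (11.3 to 15.3), CRF2 had 7.09-fold and 7.18-fold, and CRF10 had 7.09-fold and 7.03-fold. CRF1 was not bound, although a peak of 14.03-fold and 15.0-fold stood 2103.5 bp away. Both hydroxylase genes that make trans-zeatin were bound, CYP735A2 at 6.67-fold and 6.27-fold and CYP735A1 at 2.57-fold and 3.48-fold. The glucosyltransferase genes UGT76C1 and UGT76C2 are neighbours and shared a peak of 3.91-fold and 4.43-fold. KMD1, KMD2 and KMD3, whose F-box proteins target type-B ARR proteins, were bound and KMD4 was not, while the histidine kinase gene CKI1 and the exporter gene ABCG14 had no shared peak within 2000 bp.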

How the data were processed

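SPL10 DAP-seq peaks of 2 precipitated samples and the alignment log of 1 input (19553456 read pairs, 82.31% aligned overall) were used. The submitters' processing notes name cutadapt and TAIR10, and the peak names in the deposited lists name MACS. For its version, threshold and control, the sources used here give nothing. Each sample has its own list, and the authors deposited per peak a fold (a ratio to background), a −log10 p, a −log10 q and a score, which was within 1 of 10 times the −log10 q in 100% of peaks. Of the peaks, 10.8% and 7.99% had a q above 0.05.

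The number of tags at each summit was worked out from its fold and −log10 p and matched 99.99% and 100% of peaks. This step was tested on simulated data. At AHK2 more than 1 tag number matched, so its intervals are not printed. The genome-wide background came to 10.2 tags.

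Genes came from a RefSeq table of TAIR10.1 (38312 rows, 37899 nuclear), used for names, neighbours and distances. Its coordinates are not printed. ENT8 was not matched. No sequence was used here.

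Bound genes were counted with Python 3.11.15, pandas 2.3.3 and SciPy 1.17.1. Members, ARR types and lists were chosen with earlier results of these data known. Up to 4 bound members per family with the highest mean log2 fold were given in full, all others by fold. No set test was made, and 12 alternatives were computed.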

Additional observations from a re-analysis of the deposited data

How the results depend on the processing

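The order of the families by share bound changed with the setting. AHP was lowest in the main setting, LOG within 1000 bp (40%), within 500 bp (30%) and by nearest gene only (40%), and AHK with flanks alone (40%), by the −log10 q (20%) and by the 5000 peaks (0%). IPT7 fell to 12.5-fold with 75% overlap and by nearest gene only, where ARR21 was highest at 17.5-fold. With 75% overlap ARR15 and LOG6 had no shared peak. LOG1 fell to 3.99-fold within 1000 bp and within 500 bp, ARR9 to 2.94-fold within 500 bp and by nearest gene only, CKX4 to 4.41-fold by nearest gene only and CKX3 to 6.12-fold with flanks alone. With a −log10 q of at least 10 the counts were 28 members, 11 ARR (5 type-A and 5 type-B), 2 AHP, 1 AHK and 4 LOG, with a median strongest fold of 8.71. With the 5000 highest peaks they were 22 members, 9 ARR (4 type-A, 5 type-B), 1 AHP, 0 AHK, 4 IPT, 4 CKX, 4 LOG and 7 other pathway genes, with a median of 9.35. By construction both settings keep strong peaks only. Within 500 bp there were 31 members, 3 AHK, 4 IPT, 3 LOG and 9 other pathway genes, with a median of 4.75. Within 1000 bp there were 4 LOG genes and a median of 6.05. Flanks alone gave 2 AHK genes and a median of 4.28, and nearest gene only gave 3 AHK and 4 LOG genes and a median of 5.53. The median was 4.20 with any overlap, 4.28 with 75% overlap and 4.20 without the name collisions. Leaving out a replicate gave 52 members, and medians of 4.09 to 4.37. The other counts stayed within 1.5 times the main ones. No paired analysis was possible because the precipitations are a single group with no second condition. Depth limits the weak peaks: at 23 tags, the fewest at a member peak, the counting interval of AHK3 in replicate 2 runs from 1.19 to 2.69. Of the 33 genes given in full, 12 had no peak within 500 bp.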
